A study of Mus musculus with 8 samples.

Results

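Circulating mouse monocytes that had taken up latex beads were compared between the 2 blood subsets, Gr1lo cells (the nonclassical, Ly-6C low subset) and Gr1hi cells (the classical, Ly-6C high subset). The comparison used 4 of the 8 arrays of the series, 2 of Gr1lo cells with beads and 2 of Gr1hi cells with beads, and the 4 arrays of the same subsets without beads served as a reference. All cells came from the blood of male C57BL/6 mice that had received 1 µm green fluorescent latex microspheres intravenously, and monocytes were sorted 4 days later by Gr1 level and by the presence of a bead. The labels do not give the number of mice behind an array, and p-values therefore measure the spread between arrays. The sources differ on pretreatment. The design text places a depletion with clodronate liposomes 3 days before the beads in all mice, while the treatment protocol gives 250 µl of these liposomes for the labelling of classical cells and none for nonclassical cells. Under the second reading subset and clodronate pretreatment cannot be told apart in any value below. Levels are the authors' log2 values from 3' expression arrays. Each of 18193 genes was read from 1 probe set, and a difference is Gr1lo minus Gr1hi on the log2 scale with its standard error.

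Classical monocytes leave the marrow on the chemokine receptor CCR2, enter inflamed tissue and give rise to macrophages and dendritic cells. Those that stay in blood can mature into nonclassical monocytes, long-lived cells that depend on the nuclear receptor NR4A1, bind to the vessel wall through LFA-1 and CX3CR1, and clear particles and dying endothelial cells. Latex beads cannot be degraded, so a monocyte that carries one is marked as a cell that phagocytosed. Its subset was read at the sort, 4 days after the beads, and its subset at the time of uptake was not measured.

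The sorted cells had monocyte levels of the genes that define the lineage. Csf1r, the receptor for macrophage colony-stimulating factor, read 14.51 and 14.53 in Gr1lo cells and 14.10 and 14.10 in Gr1hi cells, near the top of the scale on all 4 arrays. Spn, which encodes the nonclassical surface marker CD43, read 12.25 and 12.35 against 9.66 and 9.88, and Ccr2 read 11.05 and 10.59 against 11.90 and 11.83. The arrays of the subsets did not overlap for either gene, and both lay on the side that the sort labels call for. The genes of the sorted antigen itself, Ly6c1 and Ly6c2, had no probe set with 1 listed symbol and are not analysed here. Replicate arrays correlated at 0.9955 in Gr1lo and 0.9961 in Gr1hi cells, while a Gr1lo and a Gr1hi array correlated at 0.973 to 0.9739. The array controls also moved with subset: the 24 poly-A spike-in probe sets averaged 10.4 in Gr1lo and 9.65 in Gr1hi cells, and the 18 hybridization controls 12.0 and 11.3. For both, the exact two-sided permutation test gave p = 0.333, the smallest that 2 against 2 arrays allow, and their part in the gene differences was not tested. Without beads the poly-A controls were lower, at 9.27 and 8.68 in Gr1lo and 7.75 and 8.11 in Gr1hi cells. The hybridization controls there read 10.78 and 11.10 in Gr1lo and 11.07 and 11.18 in Gr1hi cells. The part of this shift in the comparison of cells with and without beads was not tested.

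Bead-carrying Gr1lo and Gr1hi monocytes differed widely in their transcripts. Gr1lo carriers had far more mRNA for Vegfc, S1pr5, Slc12a2, Cd36, Ikzf3, Dusp16, Fabp4 and Itgax. Gr1hi carriers had far more for Emp1, Vcan, F13a1, Mmp8, Fn1 and S100a8. In the limma fit 4817 genes, or 26.5% of those tested, passed an adjusted p of 0.05. Of these, 2152 were higher in Gr1lo cells (11.8% of all genes) and 2665 lower (14.6%). Fitted differences of at least 2-fold were called in 443 genes that were higher and 531 that were lower, and of at least 8-fold in 36 and 40. Centring each array on its median turned the split to 2642 higher and 2145 lower, and cyclic loess gave 2479 and 2426, so the balance of directions depends on scaling. The median difference over all genes was -0.028 and moved by 0.063 and 0.028 under these scalings. Of the called genes, 678 lay below the background level in both subsets, that is, below 6.98, the 95th percentile of 114 olfactory, taste and similar genes of other tissues. Fitted alone, the 8788 genes with a mean above background gave 4545 calls. Lists of mostly expressed genes therefore start from a higher share than the 26.5% over all genes.

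**Figure D1:**
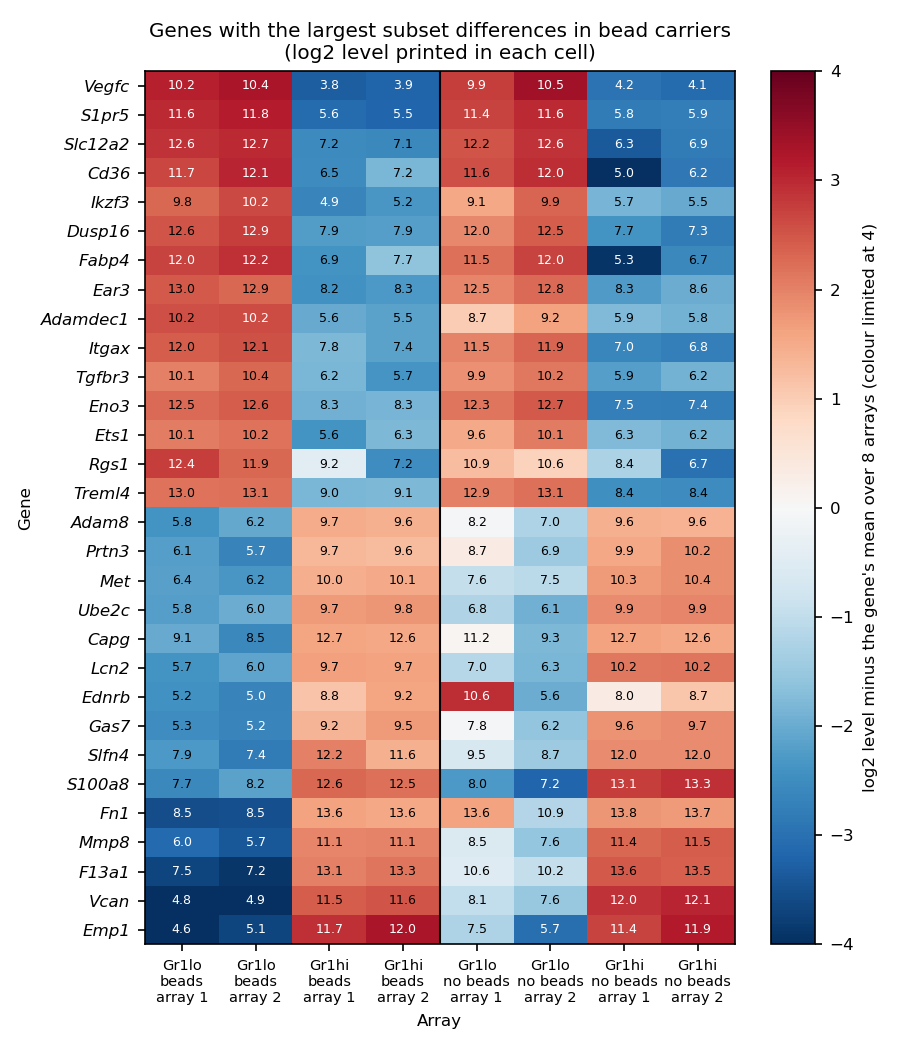
Log2 levels of the 15 genes with the largest fitted rises and the 15 with the largest fitted falls in bead-carrying Gr1lo cells, printed for each of the 8 arrays and coloured by the distance from the gene's own mean. The 2 arrays of each bead-carrying subset match each other closely for most genes, while Gr1lo array 1 without beads holds Fn1 and Ednrb far above its partner.

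Vegfc, a growth factor for lymphatic endothelium, read 10.24 and 10.39 in Gr1lo carriers and 3.82 and 3.93 in Gr1hi carriers. The Gr1hi values lie below background, so the ratio was at least 10.1-fold (difference 6.44 ± 0.17, adjusted p = 3.54e-07). For every such gene the printed difference is the fitted one, and the bound is what the level above background supports. S1pr5, a sphingosine-1-phosphate receptor needed for exit from the marrow, read 11.64 and 11.77 against 5.57 and 5.48, at least 26.5-fold higher (6.18 ± 0.11, adjusted p = 5.23e-08). The chloride cotransporter gene Slc12a2 read 12.58 and 12.67 in Gr1lo and 7.16 and 7.12 in Gr1hi cells (5.48 ± 0.18, adjusted p = 8.73e-07). For these genes the gap between subsets was many times the distance between replicate arrays. Cd36, a scavenger receptor for oxidised lipoproteins and fatty acids, read 11.71 and 12.10 against 6.51 and 7.21 (5.04 ± 0.37), and Fabp4, a fatty acid binding protein of adipocytes and macrophages, 11.98 and 12.19 against 6.89 and 7.67 (4.81 ± 0.41). Both had replicate spreads in Gr1hi cells that were wider than in Gr1lo cells, neither gene's subsets overlapped, and 1 of the 2 Gr1hi arrays lay above background for each. The phosphatase gene Dusp16 differed by 4.87, the eosinophil-type ribonuclease gene Ear3 by 4.72, Itgax (CD11c) by 4.44, the muscle-type enolase gene Eno3 by 4.24 and Treml4 by 3.98. The lymphoid transcription factor genes Ikzf3 and Ets1, the secreted protease gene Adamdec1 and Tgfbr3 lay below background on both Gr1hi arrays. They were at least 8.16-, 9.05-, 9.51- and 9.48-fold higher in Gr1lo cells, with fitted differences of 4.96, 4.20, 4.68 and 4.25. Some of these sizes depend on the probe set. The differences ran from 0.32 to 4.96 for Ikzf3, with 2 of 3 probe sets called. They ran from 0.92 to 4.85 for Ets1, 0.74 to 4.25 for Tgfbr3 and 0.98 to 4.81 for Fabp4, with all probe sets called. Rgs1, a brake on G-protein signalling, read 12.43 and 11.94 in Gr1lo cells and 9.20 and 7.18 in Gr1hi cells, a difference of 4.00 ± 0.66.

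Emp1, a membrane protein gene, read 4.56 and 5.07 in Gr1lo carriers and 11.65 and 12.00 in Gr1hi carriers, at least 28.8-fold lower in Gr1lo (-7.01 ± 0.47, adjusted p = 2.53e-05). The other Emp1 probe set differed by -0.30 and was not called. Vcan, the matrix proteoglycan versican, read 4.84 and 4.89 against 11.51 and 11.60, at least 23.8-fold lower (-6.69 ± 0.15, adjusted p = 1.83e-07), and 4 of its 8 probe sets were called lower. F13a1, coagulation factor XIII subunit A, read 7.46 and 7.24 against 13.15 and 13.27 (-5.86 ± 0.15), with both subsets above background. These Gr1hi readings lay in the upper part of the scale, and the Gr1lo readings of Emp1 and Vcan could not be told from background. Mmp8, neutrophil collagenase, read 5.99 and 5.70 against 11.06 and 11.09, at least 17.1-fold lower (-5.23 ± 0.25). Fn1, fibronectin, read 8.49 and 8.53 against 13.63 and 13.59 (-5.10 ± 0.68, adjusted p = 0.000739). Its replicates agreed within each bead-carrying subset, and its large error comes from the fit over all groups, in which the Gr1lo arrays without beads read 13.63 and 10.87. S100a8 differed by -4.62, Slfn4 by -4.26 and the actin capping gene Capg by -3.85. Gas7, Lcn2, the mitotic ubiquitin-conjugating enzyme gene Ube2c, the growth factor receptor gene Met, the granule protease gene Prtn3 and Adam8 lay below background on both Gr1lo arrays. Their fitted differences were -4.10, -3.88, -3.82, -3.73, -3.73 and -3.68, and they were at least 5.14-, 6.81-, 6.76-, 8.45-, 6.34- and 6.49-fold lower. Ednrb, an endothelin receptor gene, read 5.19 and 4.96 against 8.76 and 9.18, at least 3.98-fold lower, but its call rested near the threshold (-3.90 ± 1.23, adjusted p = 0.0464) and was lost in 9 of 17 other settings. Its 3 probe sets ran from -3.90 to -0.71 with 1 called, and the 5 of Gas7 from -4.10 to -0.40 with 4 called.

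Bead carriers expressed the marker genes of their subset. Of 22 measured nonclassical marker genes, 21 were higher in Gr1lo carriers, with a median difference of 2.39 against -0.028 over all genes, and the remaining member, Rhoc, differed by 0.46 without passing the test. Many of these genes were used to describe this subset in earlier work, so their direction is a check of the sort. Treml4, a receptor that binds dying cells, read 13.03 and 13.06 against 9.05 and 9.08, Ace (angiotensin-converting enzyme) differed by 3.87 ± 0.12 and Adgre4 by 2.95 ± 0.10. Ceacam1 differed by 2.04. Nr4a1, on which nonclassical monocytes depend, read 13.49 and 13.56 against 11.25 and 11.36 (2.22 ± 0.10, adjusted p = 3.57e-06), and Gr1hi carriers thus held a clear level of it as well. Itgal, the LFA-1 alpha chain, differed by 1.66 and Cx3cr1, the fractalkine receptor, by 1.48. Of 21 classical markers, 15 were lower in Gr1lo carriers and 2 higher (median -1.50). Besides Vcan, F13a1 and Mmp8, the lower genes included Chil3, a chitinase-like secreted lectin (-2.22 ± 0.079), haptoglobin Hp (-1.65 ± 0.11) and the adhesion gene Emb (-1.34 ± 0.087). The Ccr2 difference was smaller (-1.04 ± 0.18, adjusted p = 0.00255), and Ccr2 stayed high in Gr1lo carriers. Itgam (CD11b) differed by -0.35 (adjusted p = 0.0429), a call lost in 7 of 17 other settings.

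**Figure D2:**
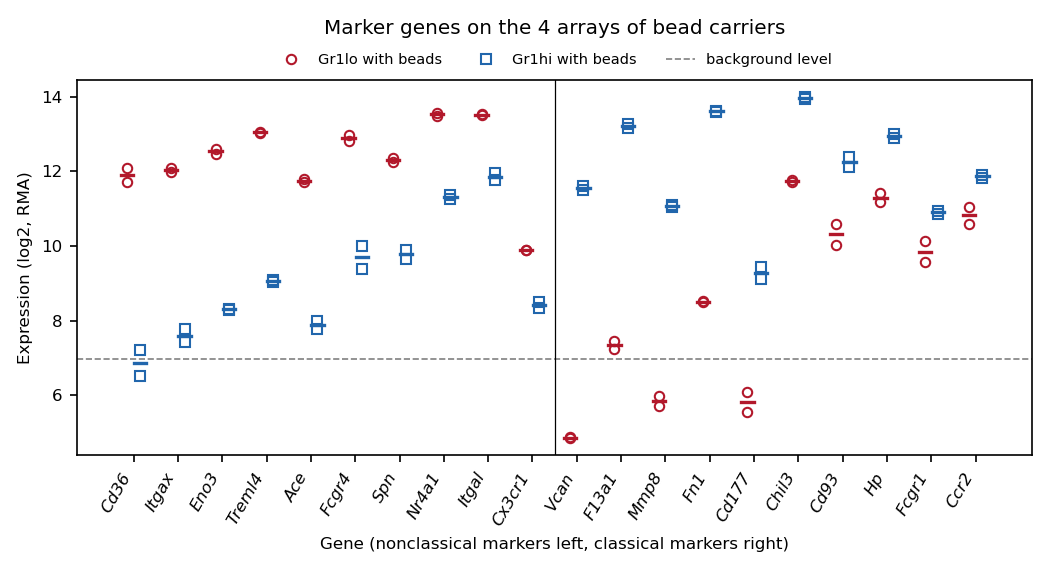
Log2 levels of 10 nonclassical and 10 classical marker genes on the 4 arrays of bead carriers, with circles for the Gr1lo arrays, squares for the Gr1hi arrays and bars for the group means. No gene's subsets overlap, and Vcan, Mmp8 and Cd177 lie below the dashed background level of 6.98 in Gr1lo cells.

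Among 38 lineage transcription factors 17 were higher and 6 lower in Gr1lo carriers (median 0.33). Klf4, a factor of monocyte differentiation, differed by 1.58 ± 0.10, Bhlhe40 by 1.82 ± 0.086, the repressor Bcl6 by 2.33 ± 0.16 and the Notch target Hes1 by 2.65 ± 0.13. With Ikzf3 and Nr4a1 these had the smallest p-values of the list, and all of them were higher in Gr1lo cells.

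The subsets also differed in the receptors that place a monocyte in a vessel or tissue. Of 28 chemoattractant receptors 6 rose and 5 fell in Gr1lo carriers, and 15 lay above background. S1pr5 stood far beyond the rest, Cxcr4, which retains cells in the marrow, was higher by 1.19 ± 0.19 and S1pr4 by 0.79 ± 0.15. Gpr183, the oxysterol receptor that guides cells within lymphoid tissue, read 7.34 and 6.53 in Gr1lo and 9.70 and 10.23 in Gr1hi cells (-3.03 ± 0.29), and 1 of the 2 Gr1lo arrays lay above background. Of 30 integrins and adhesion molecules 16 were higher and 5 lower (median 0.47). The tetraspanin gene Cd9 differed by 3.03 ± 0.13, Pecam1, which joins leukocytes to endothelium, by 3.36 ± 0.18 and Spn by 2.53 ± 0.13. The collagen-binding integrin chain Itga1 went the other way (-2.54 ± 0.15). Growth factor and cytokine receptors were higher in 12 and lower in 5 of 32 genes. The TGF-beta receptors Tgfbr1 and Tgfbr2 were higher by 1.11 and 0.87, next to Tgfbr3 above, and Il10ra and Il17ra were higher by 1.30 and 1.04. Il6st, the shared chain of the interleukin-6 family receptors, was lower with a difference of -1.13 ± 0.13 and the interleukin-1 decoy receptor Il1r2 at -1.50 ± 0.21. Pecam1 in Gr1hi cells and Itga1 and Il1r2 in Gr1lo cells lay below background, so their ratios were at least 3.51-, 2.08- and 1.77-fold.

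Receptors for particles moved in both directions within each family. Of 20 Fc receptor genes 8 were higher and 2 lower in Gr1lo carriers. Fcgr4, an activating IgG receptor, was higher by 3.19 ± 0.25 and Fcgrt, which recycles IgG, by 2.15 ± 0.092, while the high-affinity receptor Fcgr1 was lower with a difference of -1.05 ± 0.19. The kinase gene Fgr, which acts below these receptors, was higher by 1.18 ± 0.12 and the adaptor Lat2 lower with a difference of -1.08 ± 0.12. Among 30 scavenger and apoptotic cell receptors 6 were higher and 4 lower. Beside Cd36, Havcr2 (TIM-3) was higher by 1.21 ± 0.12, and the integrin chains Itgb5 and Itgav, which bind bridged apoptotic cells, by 1.07 and 0.75. The scavenger receptors Msr1 and Stab1 were lower with differences of -1.49 ± 0.23 and -1.42 ± 0.14, and Stab1, below background in Gr1lo cells, was at least 1.27-fold lower. Of 27 C-type lectins 4 were higher and 7 lower. Clec5a read 4.67 and 4.89 in Gr1lo and 8.35 and 8.25 in Gr1hi carriers, at least 2.5-fold lower (-3.52 ± 0.19), Clec10a was lower with a difference of -2.02 and Cd93 at -1.94, and Clec4a3 was higher by 0.97. The TREM, CD300 and SIRP families had 7 higher and 6 lower of 26. Trem1, which amplifies inflammation, was higher by 2.35 ± 0.19 and Cd300ld by 2.55 ± 0.12, while Trem2, a lipid receptor of tissue macrophages, was lower with a difference of -1.89 ± 0.12 and the sialic acid receptor gene Cd33 at -1.63 ± 0.10. Toll-like and other pattern receptors had 3 higher and 4 lower of 26, shares near those of all genes, although 23 of the 26 lay above background. Their differences were small: Tlr7 was higher by 0.75 and Nod1 by 0.75, and Tlr5 was lower with a difference of -0.60 and the lipopolysaccharide co-receptor gene Ly96 at -0.50.

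Matrix and calgranulin genes were more often lower than higher in Gr1lo carriers. Of 40 genes for matrix, proteases and coagulation factors 21 were lower and 4 higher in Gr1lo cells (median -0.62), and Lgals1, galectin 1, was lower with a difference of -3.20 ± 0.13. Of 17 S100 and annexin genes 9 were lower and 1 higher (median -1.18). S100a8, a subunit of calprotectin, read 7.74 and 8.19 against 12.64 and 12.53, and S100a10, S100a6 and S100a4 were lower with differences of -3.36 ± 0.29, -1.88 ± 0.11 and -1.35 ± 0.082. The annexin genes Anxa2 and Anxa1 were lower with differences of -1.25 and -1.19. Cytokine, chemokine and growth factor genes were higher in 10 and lower in 6 of 49. Il1b, the precursor of interleukin-1 beta, read 11.89 and 11.77 in Gr1lo and 8.99 and 8.22 in Gr1hi carriers (3.23 ± 0.21, adjusted p = 2.09e-05). The Gr1lo arrays were close to each other and the Gr1hi arrays spread more widely, with no overlap. Pdgfb was higher by 2.31 ± 0.30, Hgf by 0.90 ± 0.10 and Il16 by 0.86 ± 0.093, and all of these stood with Vegfc on the Gr1lo side. Complement genes were lower in 6 and higher in 3 of 24, among them the lectin Fcnb (-1.39) and factor B, Cfb (-0.93). Properdin, Cfp (-1.93), and the C3a receptor gene C3ar1 (-1.56) passed at adjusted p = 0.0354 and 0.0375, and these calls were lost in 7 and 8 of 17 other settings. Hgf in Gr1hi cells and Fcnb in Gr1lo cells lay below background, which bounds both ratios at 1.68-fold or more, and Pdgfb passed background on 1 of the 2 Gr1hi arrays.

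Genes that enclose a particle gave a mixed picture in Gr1lo carriers, and those that acidify and digest it were more often lower than higher. Of 53 actin and phagocytic cup genes 11 were higher and 8 lower. The regulators Evl, Dock5, Abi3 and Rhoq were higher by 1.42, 1.41, 1.37 and 1.19, and the actin-severing protein gene Gsn and vinculin, Vcl, were lower with differences of -2.34 ± 0.11 and -1.04 ± 0.078. Rab GTPases and maturation genes were lower in 19 and higher in 8 of 54 (median -0.19). Rab31, Rab32, Rab1a and Rab8b were lower, at -0.82 to -0.61, and Rilp, which ties late endosomes to dynein, was higher by 0.79 ± 0.11. Of 21 genes of the proton pump, which acidifies phagosomes, 9 were lower and none of the others was called higher (median -0.30). The catalytic V1 subunit gene Atp6v1a read 9.69 and 9.66 in Gr1lo and 11.20 and 11.18 in Gr1hi carriers (-1.51 ± 0.081, adjusted p = 7.54e-06). Among its partners Atp6v1c1, Atp6v1g1, Atp6v1d and Atp6v1h were lower with differences of -1.16, -1.09, -0.99 and -0.92. The soluble V1 sector had 6 of 11 genes lower with a median of -0.71, and the membrane V0 sector 2 of 8 with a median of -0.22.

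Lysosomal genes were lower in 32 and higher in 8 of 63 (median -0.28). Gla, alpha-galactosidase, read 5.89 and 6.18 in Gr1lo and 9.27 and 9.41 in Gr1hi carriers, at least 5.15-fold lower (-3.31 ± 0.15, adjusted p = 3.57e-06). The Gr1lo readings lay below background. Gpnmb, a glycoprotein of stressed lysosomes, read 8.64 and 8.09 against 11.32 and 11.52 (-3.06 ± 0.17), the cholesterol exporter gene Npc1 8.18 and 8.02 against 9.95 and 9.93 (-1.84 ± 0.10), and the protease activator gene Ctsc was lower with a difference of -1.01 ± 0.076. The genes that went the other way included Acp5, tartrate-resistant acid phosphatase, with 11.35 and 11.22 against 9.12 and 9.55 (1.95 ± 0.15), and Slc11a1 (NRAMP1), which pumps metal ions out of the phagosome (1.18 ± 0.083). NADPH oxidase and nitric oxide genes had 3 higher and 3 lower of 19. Cybb, the catalytic oxidase subunit, differed by 0.27 (adjusted p = 0.0358), a call lost in 8 of 17 other settings, while the proton channel gene Hvcn1 was lower with a difference of -1.11 ± 0.19 and the arginase gene Arg2 at -2.20 ± 0.21. Both lay below background in Gr1lo cells: Arg2 was at least 1.28-fold lower, and Hvcn1 passed background on 1 of the 2 Gr1hi arrays alone.

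Lysosomal genes are known targets of the factor TFEB, which binds the CLEAR element. Promoter windows from RefSeq (GRCm38.p6, 250 bases before to 50 after the start) were found for 14452 of the 18193 genes, as 18109 windows of 300 bases, and were searched on both strands for CACGTGAC. The letters stood in 3.25% of all windows, in 14.9% of 87 windows of the lysosome and proton pump lists, in 17.5% of 40 windows whose genes were lower in Gr1lo carriers and in 12.8% of 47 windows of the other members. The element thus occurred in both sets, and the difference between them was not tested. The 250 bases before the start are printed for Gla, whose values are given above, and for Ctsd (cathepsin D) and Glb1 (beta-galactosidase), other lower genes that hold the element, in order to show where it lies. Ctsd read 11.80 and 11.66 against 12.91 and 12.92 (-1.19 ± 0.18) and Glb1 7.85 and 7.91 against 9.07 and 9.10 (-1.21 ± 0.17). Each sequence is written 5' to 3' on the gene's strand, with the CLEAR element of either orientation in capitals, and in Gla also a match to the PU.1 letters GAGGAAGT, read on the other strand. The windows are chrX:134601006-134601255 on the minus strand, chr7:142387828-142388077 on the minus strand and chr9:114400828-114401077 on the plus strand.
Gla: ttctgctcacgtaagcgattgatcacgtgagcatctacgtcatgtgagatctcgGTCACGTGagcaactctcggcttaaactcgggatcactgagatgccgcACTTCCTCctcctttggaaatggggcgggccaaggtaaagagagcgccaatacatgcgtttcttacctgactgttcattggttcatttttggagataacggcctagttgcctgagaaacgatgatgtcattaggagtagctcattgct
Ctsd: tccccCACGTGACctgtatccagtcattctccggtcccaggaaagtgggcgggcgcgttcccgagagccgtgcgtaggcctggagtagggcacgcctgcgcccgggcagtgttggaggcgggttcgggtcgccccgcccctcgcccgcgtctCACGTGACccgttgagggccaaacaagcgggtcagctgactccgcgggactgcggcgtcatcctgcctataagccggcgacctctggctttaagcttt
Glb1: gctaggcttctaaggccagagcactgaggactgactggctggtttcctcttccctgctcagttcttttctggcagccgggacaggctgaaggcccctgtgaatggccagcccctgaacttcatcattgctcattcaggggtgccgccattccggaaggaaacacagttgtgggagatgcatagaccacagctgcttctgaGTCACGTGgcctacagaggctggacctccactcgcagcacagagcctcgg
The CLEAR match of Gla starts 196 bases before the transcription start, those of Ctsd 245 and 98 bases and that of Glb1 50 bases. Of the other motifs searched, the PU.1 letters stood in 2.93% of all windows, in 4.48% of windows of genes higher in Gr1lo carriers and in 2.89% of windows of genes lower. The NR4A letters AAAGGTCA stood in 1.28%, 1.22% and 0.951%, and the C/EBP letters TTGCNNAA in 9.39%, 8.88% and 8.67%. The window of Mmp8, a gene expressed in Gr1hi carriers and below background in Gr1lo carriers, holds both a PU.1 match 221 bases and a C/EBP match 19 bases before the start (chr9:7558179-7558428, plus strand), in capitals here.
Mmp8: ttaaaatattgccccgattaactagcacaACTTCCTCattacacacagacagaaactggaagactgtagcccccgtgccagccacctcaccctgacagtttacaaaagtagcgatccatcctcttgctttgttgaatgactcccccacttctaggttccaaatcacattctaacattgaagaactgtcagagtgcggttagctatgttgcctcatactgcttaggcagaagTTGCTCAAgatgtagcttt

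Most genes of the respiratory chain and of the mitochondrial ribosome were lower in Gr1lo carriers, by less than 2-fold for the typical gene. Of 69 genes of the respiratory chain and ATP synthase 61 were lower and 1 higher, with a median difference of -0.64, and the 4 arrays separated by subset in 68 of them, against 61.4% of all genes. Under median centring 59 and under cyclic loess 58 were lower. Complex I, which takes electrons from NADH, had 31 of 34 genes lower (median -0.67), and its subunit gene Ndufb6 read 10.07 and 10.15 in Gr1lo and 11.31 and 11.30 in Gr1hi carriers (-1.19 ± 0.083, adjusted p = 2.8e-05). Ndufc1, Ndufa4, Ndufa9 and Ndufb5 were lower with differences of -1.12, -1.07, -1.06 and -0.96. Complex II had 3 of 4 genes lower (median -0.60) and complex III 7 of 9 (median -0.34), where Uqcrq read 10.27 and 10.33 against 11.35 and 11.26. Complex IV had 7 of 10 genes lower and 1 higher, the copper chaperone gene Cox17 (0.46 ± 0.081). All 15 ATP synthase genes were lower, at -1.14 to -0.53 (median -0.65). The medians of the complexes thus lay between -0.67 and -0.34. Genes of the mitochondrial ribosome, which translates the subunits encoded by mitochondrial DNA, were lower in 57 and higher in 1 of 74 (median -0.42). The large subunit had 36 of 45 lower and the small subunit 21 of 29, with Mrps28 (-1.18 ± 0.12) and Mrpl28 (-0.98 ± 0.090) among them. In bulk samples, fewer cells with a transcript and less of it per cell cannot be told apart, and these values are relative to the other genes of each array.

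**Figure D3:**
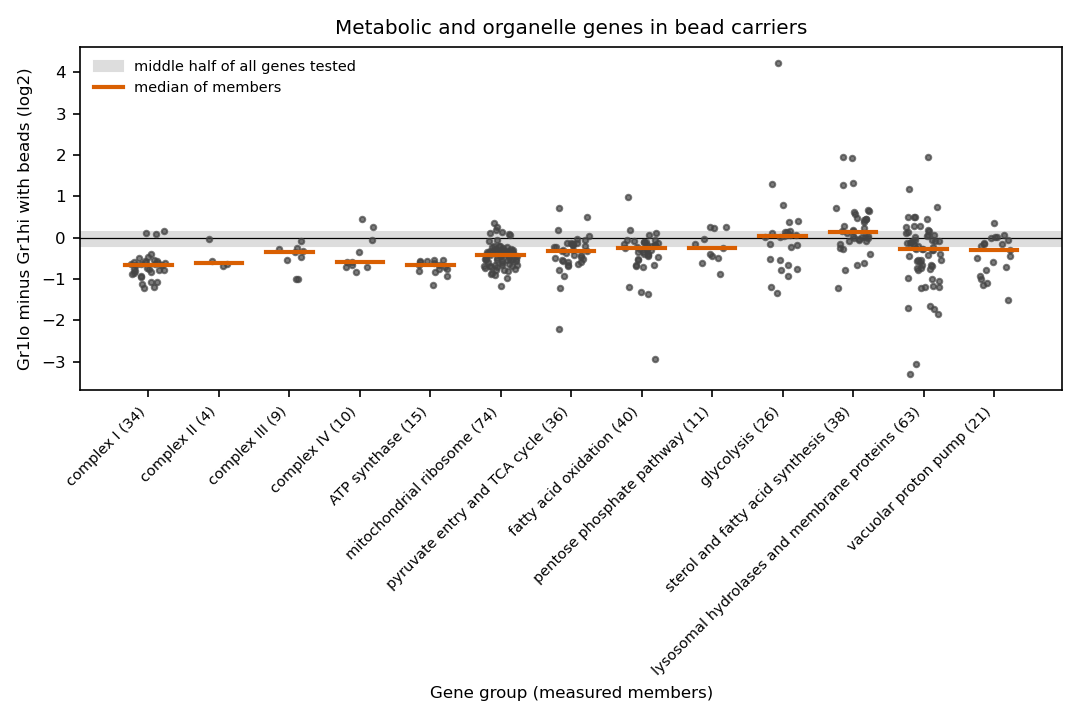
Log2 difference, Gr1lo minus Gr1hi with beads, of each measured member (points) of 13 gene groups, with the median of each group as a bar and the middle part of all genes as a grey band. The respiratory complexes and the mitochondrial ribosome lie below the band as groups, while glycolysis is centred on 0 with Eno3 far above it at 4.24.

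Among genes of the paths that feed the respiratory chain, more were called lower than higher, and many did not pass the test. The share called ran from 42.3% (glycolysis) and 42.5% (fatty acid oxidation) to 58.3% (pyruvate entry and TCA cycle). Among genes with a mean above background it was 4545 of 8788. Of 36 genes for pyruvate entry and the TCA cycle 19 were lower and 2 higher (median -0.33). Mpc1, a subunit of the carrier that brings pyruvate into mitochondria, read 8.95 and 8.74 against 11.04 and 11.07 (-2.21 ± 0.12, adjusted p = 8.91e-06), the widest gap of the list. Fumarase, Fh1, was lower with a difference of -0.93 ± 0.12 and the succinate dehydrogenase genes Sdhb and Sdhd at -0.70 and -0.64, whereas Pdha1, a subunit of pyruvate dehydrogenase, was higher by 0.71 ± 0.080. Fatty acid oxidation genes were lower in 16 and higher in 1 of 40 (median -0.26). Hadh, Acat1 and Decr1, enzymes of the mitochondrial cycle and its end products, were lower with differences of -1.36, -1.31 and -0.67, and the acyl-CoA thioesterase genes Acot1 and Acot7 at -2.93 and -1.19, while Acot9 was higher by 0.98. Glycolysis did not move as a block: 3 genes were higher and 8 lower of 26 (median 0.035). Eno3 read 12.47 and 12.61 against 8.28 and 8.32, Pfkfb4, which makes an activator of phosphofructokinase, was higher by 1.31 ± 0.10 and the lactate exporter gene Slc16a3 by 0.80 ± 0.11. The glucose transporter gene Slc2a3 was lower with a difference of -1.20 ± 0.085, pyruvate kinase, Pkm, at -0.92 ± 0.10 and Pgk1 at -0.79 ± 0.081. Of 11 pentose phosphate genes 5 were lower and 1 higher, with Pgd, which yields NADPH, lower with a difference of -0.87 ± 0.11 and Taldo1 at -0.40 ± 0.077. Tkt was higher by 0.27 at adjusted p = 0.0344, a call lost in 7 of 17 other settings. Acot1 and Slc2a3 in Gr1lo cells and Slc16a3 in Gr1hi cells lay below background, with ratios of at least 1.77-, 2.14- and 1.58-fold.

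Lipid handling genes moved in both directions. Of 40 genes for fatty acid uptake, storage and lipases 12 were higher and 12 lower in Gr1lo carriers. Pparg, the nuclear receptor that drives Cd36 and Fabp4 in macrophages, read 10.44 and 10.50 in Gr1lo and 8.37 and 8.27 in Gr1hi carriers (2.15 ± 0.14, adjusted p = 2.09e-05). The fatty acid binding protein genes differed in sign: Fabp4 was higher as given above, Fabp5 read 10.67 and 10.43 against 12.55 and 12.54 (-2.00 ± 0.11) and Fabp3 was lower with a difference of -2.08 ± 0.17. Genes of sterol and fatty acid synthesis were higher in 13 and lower in 4 of 38 (median 0.14). Idi1, Cyp51 and Sqle, enzymes on the way to cholesterol, were higher by 1.95 ± 0.24, 1.93 ± 0.18 and 1.26 ± 0.13, and Acss2, which makes acetyl-CoA from acetate, by 1.32 ± 0.11, while the desaturase gene Fads1 was lower with a difference of -1.21 ± 0.13. LXR targets and efflux genes were higher in 8 and lower in 5 of 26. Pltp, Apoc2 and Apoe, which carry lipids in plasma, and the sterol carrier gene Stard4 were higher by 2.12, 1.45, 1.43 and 1.46, and the cholesteryl ester hydrolase gene Nceh1 was lower with a difference of -2.10 ± 0.14. Sphingolipid and phosphoinositide enzymes were higher in 10 and lower in 7 of 37. Sgms2, a sphingomyelin synthase gene, read 7.70 and 6.84 in Gr1lo and 10.77 and 10.93 in Gr1hi carriers (-3.58 ± 0.27), the ceramide kinase gene Cerk was lower with a difference of -1.81 ± 0.22 and Sgpl1, which cleaves sphingosine-1-phosphate, at -1.13 ± 0.11. The phosphodiesterase gene Smpdl3b was higher by 2.52 ± 0.10. Eicosanoid genes were higher in 7 and lower in 4 of 30: Hpgd, which inactivates prostaglandins, read 12.54 and 12.57 against 10.11 and 10.16 (2.42 ± 0.13), and the prostaglandin E receptor gene Ptger4 was higher by 1.20 ± 0.22. The dimmer subset lay below background for Fabp3, Cyp51, Sqle and Fads1, whose ratios were at least 1.72-, 1.92-, 2.14- and 1.67-fold. It passed background on 1 of 2 arrays for Idi1 and Sgms2.

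Redox, iron, amino acid and nucleotide genes were more often lower than higher in Gr1lo carriers. The share of members called was 55.3%, 45.2%, 56.5% and 55.3%, beside 4545 calls among the 8788 genes with a mean above background. These shares are near that of expressed genes, and the lean lies in the direction of the calls. Of 38 glutathione, NRF2 and metallothionein genes 17 were lower and 4 higher in Gr1lo cells (median -0.22). The microsomal glutathione transferase genes Mgst3, Mgst2 and Mgst1 were lower with differences of -2.36 ± 0.13, -1.37 ± 0.13 and -1.21 ± 0.090, and the peroxidase gene Gpx3 at -1.74 ± 0.086. Iron and haem genes were lower in 10 and higher in 4 of 31. Lcn2, which sequesters bacterial iron carriers, read 5.71 and 6.00 against 9.75 and 9.74, Ncoa4, the receptor for ferritin breakdown, was lower with a difference of -1.03 ± 0.083, and Hfe, a regulator of iron uptake, was higher by 2.53 ± 0.11. Amino acid, polyamine and one-carbon genes were lower in 21 and higher in 5 of 46 (median -0.29), and 17 of the lower genes lay above background. Psat1 of serine synthesis was lower with a difference of -2.52 ± 0.17, the aspartate transaminase genes Got1 and Got2 at -2.06 and -0.91 and Ahcy at -1.27 ± 0.10, while Oaz2, an inhibitor of polyamine synthesis, was higher by 1.53 ± 0.083. Of 38 nucleotide genes 15 were lower and 6 higher, with the salvage enzymes Aprt, Adk and Pnp lower with differences of -2.05, -2.02 and -1.14. Hypoxia response genes were higher in 8 and lower in 4 of 28. Bhlhe40, P4ha1 and Ankrd37 were higher by 1.82, 0.96 and 0.70, and Ndrg1, Bnip3 and Pgk1 were lower with differences of -2.17, -1.21 and -0.79. Mgst2 and Psat1 lay below background in Gr1lo cells and Ankrd37 in Gr1hi cells, so their ratios were at least 1.62-, 5.36- and 1.46-fold. These pathways held single genes with differences over 4-fold beside many that did not pass the test.

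Growth and state genes completed the contrast. Of 54 cell cycle genes 26 were lower and 4 higher in Gr1lo carriers (median -0.45). Only 39 of the 54 lay above background in at least 1 subset, among them 16 of the lower genes. Ube2c read 5.80 and 6.03 in Gr1lo and 9.71 and 9.76 in Gr1hi carriers and cyclin B2, Ccnb2, 5.96 and 6.33 against 9.34 and 9.17, so both lay below background in Gr1lo cells. The brake Cdkn1b and cyclin D2, Ccnd2, were higher by 1.38 ± 0.15 and 1.99 ± 0.15. Cytosolic ribosome genes were lower in 19 and higher in 1 of 44 (median -0.21), but median centring left 11 and cyclic loess 10 lower. Immediate early and stress genes were higher in 24 of 42 (median 0.77), and no other member passed the test in either direction. The median level of the 42 genes was 11.314 and 10.944 on the Gr1lo arrays and 10.144 and 9.125 on the Gr1hi arrays. The replicate Gr1hi arrays thus lay far apart, and the size of the list's difference rests in part on the lower, second one. Egr1 read 10.35 and 10.54 against 7.08 and 6.69 (3.56 ± 0.23), and the phosphatase genes Dusp2 and Dusp5 were higher by 3.32 ± 0.11 and 2.86 ± 0.18. The survival gene Bcl2 read 10.38 and 10.60 in Gr1lo and 6.66 and 7.13 in Gr1hi carriers (3.60 ± 0.20, adjusted p = 1.07e-05), and the Bcl2 and cell death list had 11 higher and 9 lower of 33, including Pmaip1 (NOXA), higher by 1.69 ± 0.13. Ccnd2, Egr1 and Bcl2 passed background on 1 of the 2 Gr1hi arrays.

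The classical MHC class II genes were higher in Gr1lo carriers. H2-Ab1 read 12.91 and 12.50 against 9.24 and 9.17 (3.50 ± 0.21, adjusted p = 1.44e-05), H2-Aa 13.83 and 13.51 against 10.67 and 10.57 (3.06 ± 0.12), and the invariant chain Cd74 differed by 2.17 ± 0.17. Of 16 class II genes 9 were higher and 2 lower, the latter including the lysosomal reductase gene Ifi30 (-1.38 ± 0.12). Of 17 B cell markers, Cd22, Cd79b, Bank1 and Ralgps2 were also higher in Gr1lo carriers, Blnk and Ighm were lower and 11 were not called. The defining B cell gene Cd79a lay below background. The part of B cell RNA in the class II differences was not tested. Class I genes were higher in 8 and lower in 4 of 17: H2-K1 and H2-D1 were higher by 0.83 and 0.69, and the chaperones Calr and Canx were lower with differences of -1.01 and -0.81. Type I interferon response genes were lower in 15 and higher in 1 of 40 (median -0.22), with Oasl2 (-1.71 ± 0.27), Ifi27l2a (-1.37 ± 0.15) and Bst2 (-1.24 ± 0.17) among the lower genes. The 4 arrays separated by subset in 22 of the 40, against 61.4% of all genes. The median level of the list was 9.197 and 8.764 on the Gr1lo arrays, a gap wider than the list's median difference, and 9.733 and 9.614 on the Gr1hi arrays. Guanylate binding protein, immunity GTPase and Schlafen genes were higher in 3 and lower in 4 of 17. The Schlafen genes Slfn4, Slfn1 and Slfn5 were lower with differences of -4.26, -1.50 and -1.39, and Gbp8 and Irgm2 were higher by 2.14 and 1.03, with Gbp8 below background in Gr1hi cells and at least 2.22-fold higher. Of 27 genes of resident tissue macrophages 3 were higher and 4 lower, shares near those of all genes, although 19 of the 27 lay above background.

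**Figure D4:**
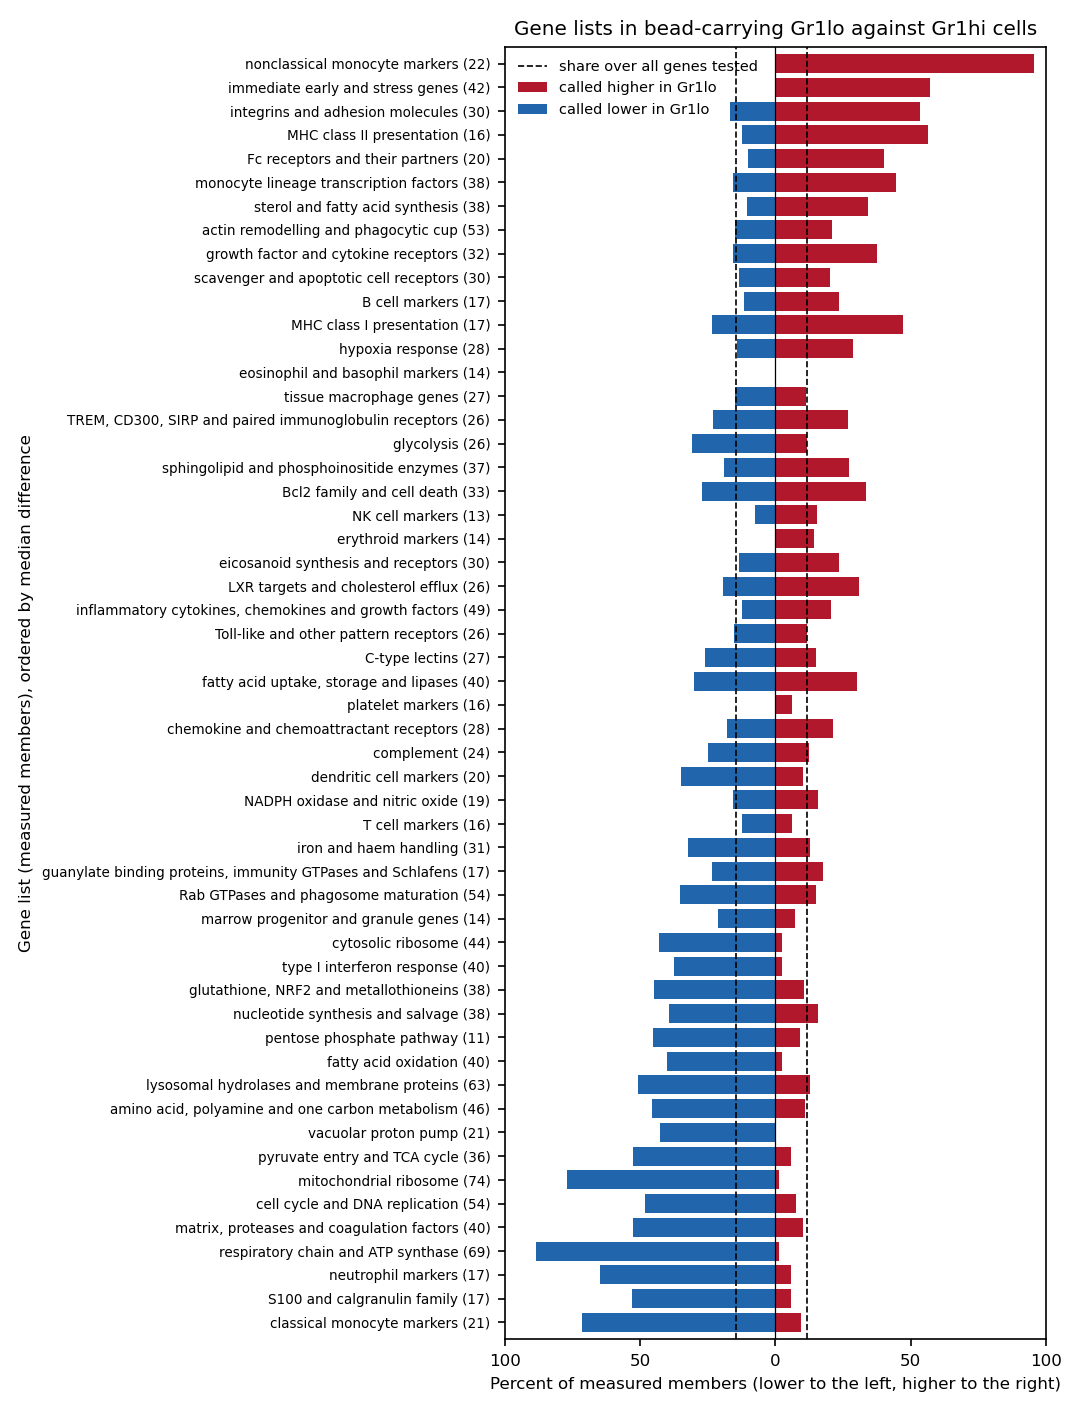
Share of the measured members of 54 gene lists that were called higher (right) or lower (left) in bead-carrying Gr1lo cells, ordered by median difference, with dashed lines at the shares over all genes tested (11.8% and 14.6%). Nonclassical markers and immediate early genes extend furthest to the right, and the respiratory chain, the mitochondrial ribosome and classical markers furthest to the left.

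Markers of other blood cells moved with some of these groups. Of 17 measured neutrophil markers 11 were lower and 1 higher in Gr1lo carriers (median -0.79). Of the 17, 11 lay above background in at least 1 subset, among them 7 of the lower genes. Their summed linear level was 3440 to 3470 on the Gr1lo arrays and 14200 to 16100 on the Gr1hi arrays. The list includes Mmp8 and Cd177, which classical monocytes also express, and S100a8. Cxcr2, a defining receptor of neutrophils, read 5.83 and 5.87 in Gr1lo and 6.20 and 6.01 in Gr1hi cells, below background on all 4 arrays, while the granule genes Ngp and Camp passed background on the first Gr1hi array alone, at 7.46 and 7.16. Ly6g had no value. The part of neutrophil RNA in the S100, matrix and granule gene differences was not tested. Of 14 marrow progenitor and granule genes 3 were lower, Prtn3, Ctsg (-1.88, at least 1.62-fold) and Flt3 (-0.65), and Igsf6 was higher (0.45). Their summed levels were 5020 to 5490 in Gr1lo and 5120 to 5320 in Gr1hi cells. Most of each sum was Igsf6, at 12.1 and 11.9 against 11.6 and 11.5, so the sums say little about the other members. B cell markers were higher in 4 and lower in 2 of 17, with summed levels of 5390 to 5480 and 6410 to 6520. A large part of these sums was Ighm, at 11.1 and 11.2 in Gr1lo and 12.0 and 11.9 in Gr1hi cells, so they do not give the direction of the other members. Cd79b, a chain of the B cell receptor complex, read 8.47 and 8.16 in Gr1lo and 7.03 and 7.17 in Gr1hi cells (1.22 ± 0.14, adjusted p = 0.000282). Bank1, a B cell scaffold gene, was higher by 1.04 ± 0.23 and Cd22 by 1.70 ± 0.13, and Blnk and Ighm were lower with differences of -1.59 ± 0.47 and -0.81 ± 0.11. The defining gene Cd79a, the partner chain of Cd79b, lay below background on all 4 arrays, as did Ncr1 for NK cells, Prg2 for eosinophils and Hba-a1 for erythroid cells. Cd3e of T cells read 7.15 and 7.01 against 7.39 and 7.43 (-0.33 ± 0.093, adjusted p = 0.0295), near background. The summed T cell level was 1500 to 1520 in Gr1lo and 1750 to 1790 in Gr1hi cells, with 1 gene higher and 2 lower of 16. Of these 16, 4 lay above background, and the higher gene was not among them. NK cell genes were higher in 2 and lower in 1 of 13 and summed to 813 to 852 against 794 to 881. Only 1 of the 13 lay above background, and none of the called ones did. Platelet genes were higher in 1 of 16 (Itgb3, 1.13) and summed to 2540 to 2900 against 2560 to 2580, and Pf4 differed by 0.43 (adjusted p = 0.783). Erythroid genes were higher in 2 of 14, Tfrc (0.65) and Alas2 (0.64), and summed to 1520 to 1650 against 1380 to 1440, and no eosinophil or basophil gene lay above background. Dendritic cell genes were lower in 7 and higher in 2 of 20, and summed to 7880 to 7940 against 7540 to 7850. The lower genes included Cd24a (-3.04 ± 0.52) and Flt3 (-0.65 ± 0.12). The higher genes were Itgax (4.44 ± 0.15), the largest difference of the list, and Dpp4 (1.62 ± 0.13, at least 2.05-fold).

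The same contrast was read in the cells without beads, whose group means come from other arrays than those of the first comparison. Both contrasts took their error from the 1 fit over all 8 arrays, so their calls are not independent. The median difference was 2.68 without and 2.39 with beads for nonclassical markers, -1.01 and -1.50 for classical markers, and -0.49 and -0.64 for the respiratory chain. Each of these lists thus kept its direction. Without beads 4288 genes (23.6% of those tested) were called. Both contrasts called 3374 genes, which is 70.0% of the calls with beads and 78.7% of those without, in the same direction for 3371 of them. Across genes, which are not independent replicates, the differences correlated at 0.887 (Pearson) and 0.729 (Spearman). Of the 974 genes called with at least a 2-fold difference in bead carriers, 970 had the same sign without beads, and 71 were less than 50% as large there. The difference between the 2 contrasts was called for 8 genes (0.044% of those tested), 2 higher and 6 lower, and 1427 genes had an unadjusted p under 0.05. Without the second array of Gr1lo cells without beads it was called for 167 genes, and without the first array of Gr1hi cells without beads for 1, so this count rests on single reference arrays.

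**Figure D5:**
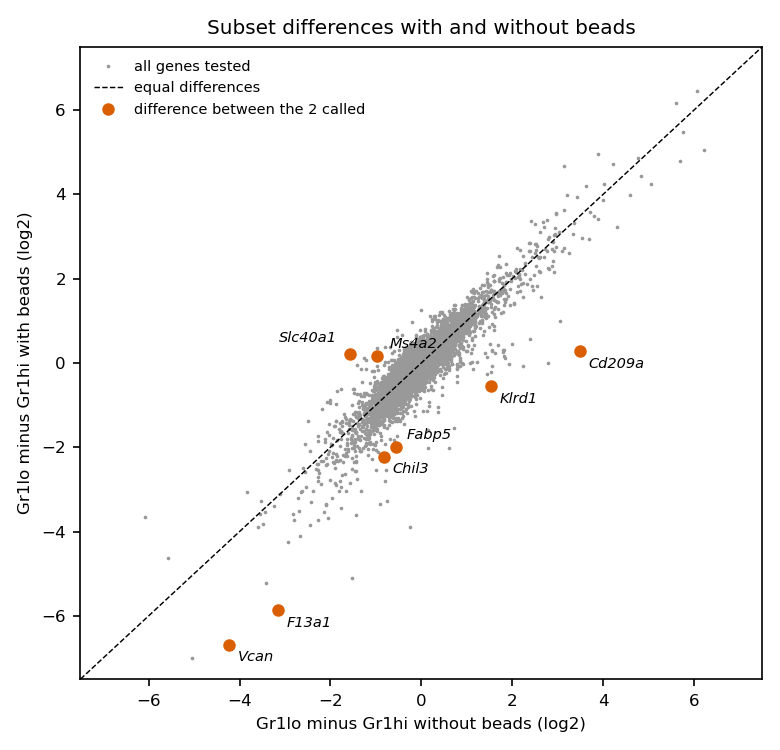
Log2 subset difference (Gr1lo minus Gr1hi) of each gene without beads on the horizontal and with beads on the vertical axis, with a dashed line where both are equal. The 8 marked genes passed the test of the difference between the 2 contrasts, among them Vcan at -6.69 with and -4.22 without beads. In Gr1lo carriers Vcan lay below background.

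The genes with such a difference differed in where it arose. Among 16 other settings the call was lost in 11 for Slc40a1, in 6 each for Vcan and Fabp5, in 2 for Chil3 and in 1 for F13a1, and in 1 of 15 for Klrd1. For Vcan, F13a1 and Chil3 the fitted gap between subsets was wider in bead carriers. Vcan lay below background in Gr1lo carriers, so the size of its widening rests in part on readings under that level. F13a1 read 10.61 and 10.17 in Gr1lo and 13.58 and 13.51 in Gr1hi cells without beads, against 7.46 and 7.24 and 13.15 and 13.27 with beads (difference of differences -2.71 ± 0.21, adjusted p = 0.00443). Chil3 read 13.18 and 13.26 in Gr1lo cells without beads and 11.72 and 11.76 with beads, and Gr1hi cells stayed at 14.05 and 14.03 without and 13.98 and 13.94 with beads (-1.40 ± 0.11, adjusted p = 0.00443). For these genes the Gr1lo readings moved and the Gr1hi readings lay close together. Fabp5, an intracellular lipid carrier, differed on the other side: Gr1lo cells read 10.75 and 10.56 without and 10.67 and 10.43 with beads, and Gr1hi cells 11.24 and 11.19 without and 12.55 and 12.54 with beads (-1.44 ± 0.15, adjusted p = 0.0253). Slc40a1, the iron exporter ferroportin, read 9.51 and 9.08 in Gr1lo and 9.11 and 9.06 in Gr1hi carriers, which overlapped, but 6.24 and 6.39 (both below background) and 7.78 and 7.98 without beads. Its subset difference was 0.21 with and -1.56 without beads (1.78 ± 0.20, adjusted p = 0.0347), so a gap seen without beads was not called among carriers, but most other settings did not keep this call. Cd209a, a C-type lectin of dendritic cells and some monocytes, read 10.06 and 9.73 in Gr1lo cells without beads and below background on all arrays of the other 3 groups (-3.21 ± 0.17, adjusted p = 0.000646). Klrd1, an NK cell receptor gene, behaved likewise, with 7.55 and 7.80 in Gr1lo cells without beads and 5.26 and 5.28 in Gr1lo carriers (-2.10 ± 0.17, adjusted p = 0.00443). Fn1 and Ednrb had larger differences of differences, -3.59 ± 0.95 and -3.66 ± 1.73, but these did not pass (adjusted p = 0.52 and 0.657), and the Gr1lo arrays without beads read 13.63 and 10.87 for Fn1 and 10.57 and 5.62 for Ednrb.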

How the data were processed

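Per the submitters' processing notes, the authors summarised the arrays with RMA and tested them with limma, and the deposited values are log2 expression levels for 45101 probe sets on 8 arrays, 2 in each of 4 groups. Of these, 34945 had 1 listed gene symbol, 932 several and 9160 none, and 64 were controls. The platform annotation named the genes, and 34741 probe sets matched a RefSeq gene by Entrez identifier. The 18193 genes were each read from their brightest probe set, by its mean across all 8 arrays (9010 genes had several), and 8788 genes had a mean above the background level of 6.98. From the deposited values, 4 group means were fitted per gene with limma 3.58.1 in R 4.3.3 (lmFit and eBayes, 4 residual and 4.48 prior degrees of freedom). Benjamini-Hochberg adjustment ran over all genes, and an adjusted p under 0.05 made a call. The fit was tested on simulated data. Arrays give no count depth, and their number, 2 in each group, limits the precision.

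Named genes are the 15 largest called rises and falls above background whose arrays separate by subset, up to 6 called members with the smallest p in each of 54 gene lists, the genes called for the difference of differences, the label check genes and defining markers of other cells. Camp, Cox17, Ctsd, Cxcr2, Glb1, Ms4a2, Ngp and Rhoc were named after their values were seen. The comparison, its members and the lists were chosen with earlier results of these data known. Lists are described by counts and medians, with no set test. A fold of at least N sets the brighter group's mean against the background level. Replicate numbers are shared between groups but nothing in the labels ties same-numbered arrays, and they were not used as pairs. Scaling, filters, probe set choice, eBayes settings, array weights, blocks and left-out arrays were tried as alternatives.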

Additional observations from a re-analysis of the deposited data

Results flagged for a closer look

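The 8 genes whose subset difference differed between cells with and without beads, by the test of the difference itself in the limma fit, were Cd209a (-3.21 on the log2 scale, subset difference with beads minus without), F13a1 (-2.71), Vcan (-2.46), Klrd1 (-2.10), Fabp5 (-1.44), Chil3 (-1.40), Ms4a2 (1.14) and Slc40a1 (1.78). Ms4a2, a chain of the IgE receptor, lay below background in all 4 groups. Cd209a and Klrd1 lay below background in both groups of bead carriers, so their values rest on the Gr1lo arrays without beads. Vcan lay below background in Gr1lo carriers and Slc40a1 in Gr1lo cells without beads, so the sizes of both rest in part on such readings.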

How the results depend on the processing

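Of the 284 genes under the naming rule that were called with beads, 258 kept their call under every alternative run and 26 lost it in at least 1, and no called difference changed sign. The with-beads count of 4817 ranged from 3267 to 4964 when each array was left out in turn, and from 4545 (filter at the background level) to 5653 (replicate block within subset) among the gene-level alternatives; testing every probe set gave 8302 calls of 34945. A replicate block over all groups gave 5177 calls with beads, and either block gave 10 for the difference of differences. Across genes, the deviations of same-numbered arrays correlated at 0.025 between the bead-carrying subsets, at 0.273 (Gr1lo) and 0.36 (Gr1hi) between cells with and without beads, and at 0.085 between the subsets without beads. The count without beads ranged from 2631 to 4125 with an array left out and was 7277 over probe sets. The difference of differences, called for 8 genes, was called for 5 with the filter or with the mean of all probe sets, 17 with trend and robust eBayes, 13 over probe sets and 1 to 167 with an array left out. Leaving out 1 array of 2 assumes that the lone array varies like the other groups. Of 54 list medians, 8 near 0 changed sign under a scaling alternative: Toll-like receptors, C-type lectins, cytokines, fatty acid uptake, LXR targets, eicosanoids, NK cell and erythroid markers. Signal over background limits genes under 6.98, whose differences are compressed.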
